A study of Homo sapiens with 3 samples.

Results

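The major histocompatibility complex (MHC) and the adjoining part of chromosome band 6p21 were examined in peak lists of chromatin immunoprecipitation and sequencing (ChIP-seq) from K562 cells. The region was defined by position, with earlier results of these data known. It took in every peak on chromosome 6 (build hg19) with its midpoint from 28 Mb up to 45 Mb. It held 408 of the 14365 codanin-1 peaks (2.84%) and 88 of the 5164 GATA1 peaks (1.70%). It was divided, from the telomere inwards, into a stretch before class I (28 to 29.6 Mb), class I (29.6 to 31.5 Mb), class III (31.5 to 32.4 Mb), class II (32.4 to 33.4 Mb) and 6p21 beyond class II (33.4 to 45 Mb). These 5 stretches held 21, 57, 31, 16 and 283 codanin-1 peaks and 4, 13, 10, 5 and 56 GATA1 peaks.

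K562 is a human erythroleukaemia line. The series has 3 K562 libraries, 1 per antibody, which share the cell line, culture medium, fixation and shearing protocol: Cod1, a homemade antibody raised against residues 123 to 142 in the N-terminal part of codanin-1, the GATA1 antibody N6, and rabbit IgG. Peak lists of Cod1 and GATA1 were compared, and the IgG library was not analysed here. With 1 library per antibody no value has a replicate error, so no p-value is given. The intervals below are 95% exact intervals that cover counting error only, and they treat neighbouring peaks as independent, which they are not.

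Codanin-1 is the protein altered in congenital dyserythropoietic anaemia type I and is known to bind the histone chaperone ASF1. GATA1 is the transcription factor that directs erythroid gene expression. The MHC is among the most gene-rich stretches of the human genome. Its class I genes encode the HLA molecules that present peptides to cytotoxic T cells, its class II genes encode those that present peptides to helper T cells, and the class III genes between them include those of complement components, tumour necrosis factor cytokines and heat-shock proteins. Olfactory receptor genes lie on the telomeric side of class I, and 6p21 beyond class II carries genes of the cell cycle and of growth control, such as CDKN1A, PIM1 and CCND3. K562 cells are known for showing little HLA class I and no HLA class II on their surface. The gene table supplied is of build GRCh38.p14 and the lists are of hg19, so genes could not be attached to peaks, and sites are named by position.

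The authors' deposited values showed modest enrichment in both lists, and the sequencing depth behind them is unknown. Peaks lay on 24 chromosomes in the codanin-1 list and on 25, the mitochondrial genome included, in the GATA1 list. Both lists held 0 peaks on other sequences, such as the alternative MHC haplotypes. Some windows of 1 Mb elsewhere in the genome are very crowded: 10 of 3106 held at least 10 times the mean of both lists, and 0 of these lay in the region. Genome-wide values are therefore given for all chromosomes and for ordinary windows, meaning the genome without those 10 windows and without chromosomes Y and M. Ordinary windows held 12940 codanin-1 and 3904 GATA1 peaks.

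Codanin-1 peaks were crowded in the MHC and 6p21 relative to the long arm of chromosome 6 (6q, taken from 62 Mb to the last peak). The region had 24.0 codanin-1 peaks per Mb (interval 21.7 to 26.4) and 6q had 3.57 (3.22 to 3.94), a density ratio of 6.73 (5.84 to 7.75). GATA1 peaks were crowded there as well, with 5.18 per Mb (4.15 to 6.38) against 0.706 on 6q (0.557 to 0.883), a ratio of 7.33 (5.34 to 10.1). The region makes up 9.94% of chromosome 6 up to its last peak, and 37.9% of that chromosome's codanin-1 calls and 41.9% of its GATA1 calls lay in it. Over all chromosomes the densities were 4.65 codanin-1 and 1.67 GATA1 peaks per Mb. Against chromosomes 17 and 19, which are rich in genes, the codanin-1 density ratios of the region were 3.86 (3.38 to 4.40) and 2.45 (2.16 to 2.79). For GATA1 they were 2.68 (2.04 to 3.50) and 1.18 (0.92 to 1.51). The region and chromosome 19 were thus not told apart in GATA1 density.

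6q was itself uneven, so the size of this ratio depended on the part of 6q used. Cut at its midpoint, the centromeric side of 6q had 1.21 codanin-1 peaks per Mb and the telomeric side had 5.92. The region exceeded the telomeric side 4.05-fold (interval 3.49 to 4.70) and the centromeric side 19.8-fold (15.3 to 26.1). For GATA1 the telomeric side had 1.30 peaks per Mb, and the region exceeded it 3.98-fold (2.87 to 5.51).

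The crowding in the region was continuous and did not rest on a single window. Each of its 17 windows of 1 Mb held from 12 to 37 codanin-1 peaks, with a median of 25. The median window held 1 codanin-1 peak on 6q and 1 over the whole genome. Windows with at least 13 codanin-1 peaks made up 10.3% of the genome (321 of 3106), and 15 of the 17 windows of the region were among them, against 12 of the 110 windows of 6q. The fullest was the window from 31 to 32 Mb, which holds the end of class I and part of class III, with 37 codanin-1 peaks (rank 26 of 3106) and 14 GATA1 peaks. It was followed by the window from 33 to 34 Mb with 35 codanin-1 and 11 GATA1 peaks, and the window from 37 to 38 Mb with 32 and 6. The sparsest windows were those from 28 to 29 Mb and from 38 to 39 Mb, with 12 codanin-1 peaks each.

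The edges of the crowded stretch differed. On the centromeric side the window from 44 to 45 Mb held 24 codanin-1 peaks, the next one 12, and the windows from 46 and 47 Mb held 3 and 2. From 45 to 58 Mb the density was 2.46 per Mb, and the region exceeded it 9.75-fold (interval 6.80 to 14.4). On the telomeric side the short arm before 28 Mb had 8.75 codanin-1 peaks per Mb, and the region exceeded it 2.74-fold (2.34 to 3.23). The 2 windows just before 28 Mb held 14 and 9 codanin-1 peaks with 2 and 0 GATA1 peaks.

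**Figure D1:**
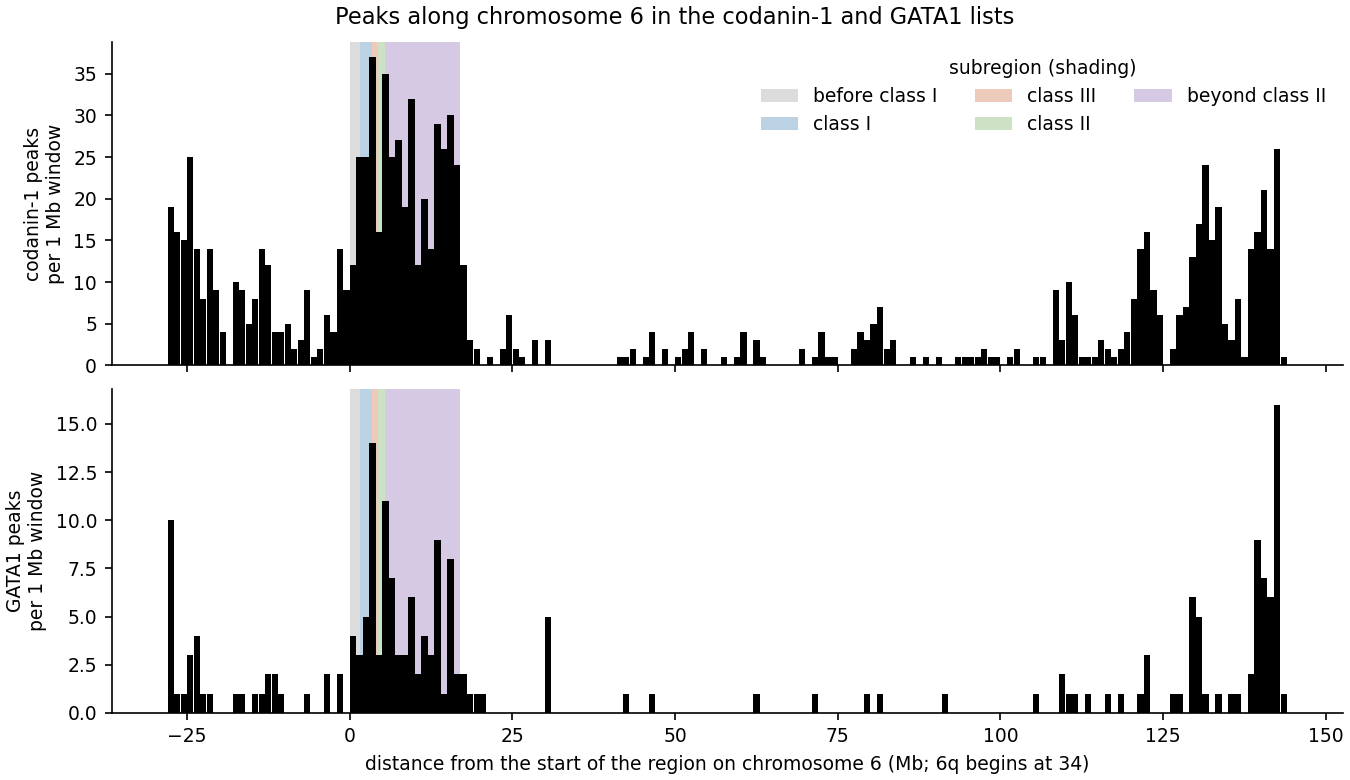
Codanin-1 peaks (top) and GATA1 peaks (bottom) per window of 1 Mb along chromosome 6; the horizontal axis is the distance in Mb from the start of the region, and shading marks its 5 subregions. All 17 windows of the region hold 12 or more codanin-1 peaks, and the count falls to 3 in the second window after it.

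Within the region class III had the highest density of both lists. Class III, the stretch of complement and cytokine genes, had 34.4 codanin-1 peaks per Mb (interval 23.4 to 48.9) and 11.1 GATA1 peaks per Mb (5.33 to 20.4). Class I followed with 30.0 codanin-1 peaks per Mb (22.7 to 38.9) and 6.84 GATA1 peaks per Mb (3.64 to 11.7). The density beyond class II was 24.4 codanin-1 peaks per Mb (21.6 to 27.4) and 4.83 GATA1 peaks per Mb (3.65 to 6.27). These neighbours in the order were not told apart for codanin-1, since the ratio of class I to class III was 0.87 (0.55 to 1.40) and that of class III to the stretch beyond class II was 1.41 (0.94 to 2.05).

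Class II and the stretch before class I were the sparser parts. Class II had 16.0 codanin-1 peaks per Mb (interval 9.15 to 26.0), and class III exceeded it 2.15-fold (1.14 to 4.21) and class I 1.88-fold (1.06 to 3.50). The ratio of class II to the stretch beyond it was 0.66 (0.37 to 1.08), an interval that includes 1. The stretch before class I had 13.1 codanin-1 peaks per Mb (8.12 to 20.1), or 0.44 times class I (0.25 to 0.73) and 0.54 times the stretch beyond class II (0.33 to 0.84). Its ratio to class II was 0.82 (0.41 to 1.68), which leaves the order of the sparser parts undetermined. Even so, the stretch before class I exceeded 6q 3.68-fold (2.25 to 5.70) and class II exceeded it 4.49-fold (2.54 to 7.38), whereas class I and class III exceeded it 8.41-fold (6.25 to 11.1) and 9.66-fold (6.47 to 13.9). In all, 10 pairs of subregions were compared without adjustment of the intervals, and the GATA1 counts of 4 to 13 in the first 4 subregions give wide intervals.

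**Figure D2:**
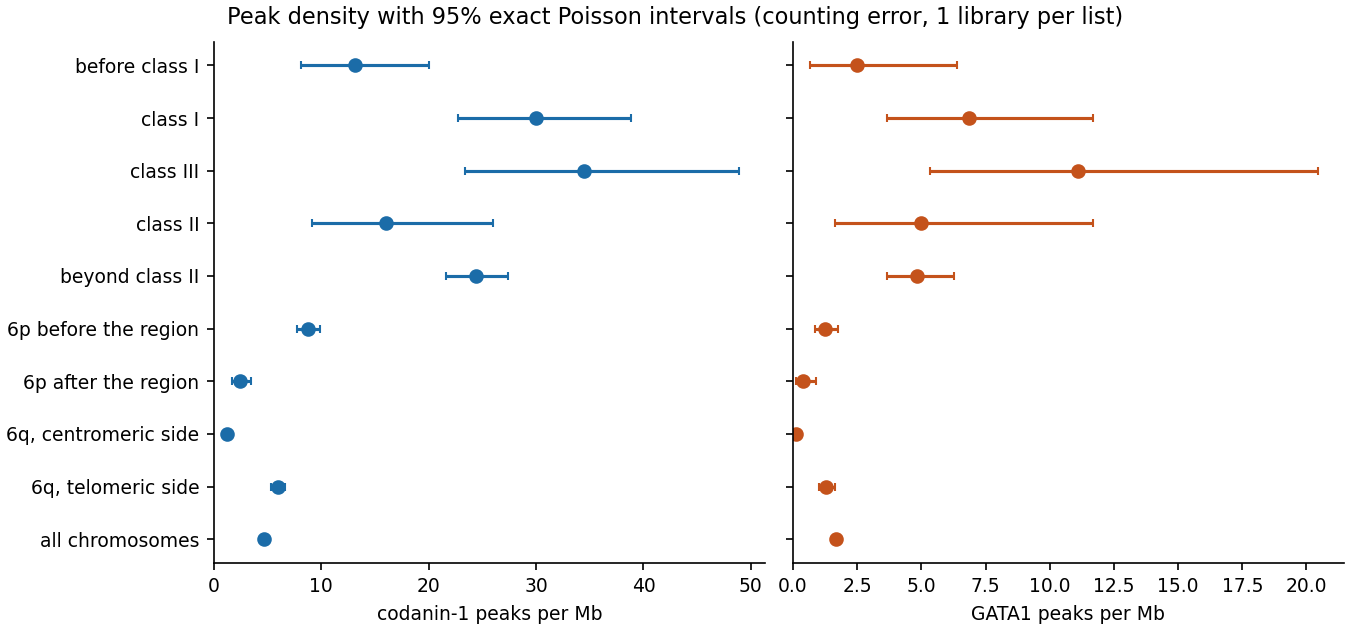
Peaks per Mb in the 5 subregions, the rest of chromosome 6 and all chromosomes, for codanin-1 (left) and GATA1 (right); points are densities and bars are 95% exact Poisson intervals for counting error. Class I and class III lie at 30.0 and 34.4 codanin-1 peaks per Mb, above class II at 16.0 and far above both sides of 6q.

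At a finer scale the peaks were spread through the region. Of its 170 bins of 100 kb, 31 (18.2%) held no codanin-1 peak, against 859 of 1091 bins (78.7%) on 6q. The fullest bins held 8 codanin-1 peaks each, and there were 4 of them. Of these, 2 were in class III, at chr6:31600001-31700000 with 3 GATA1 peaks and at chr6:32000001-32100000 with 1 GATA1 peak. The other two were beyond class II, at chr6:33800001-33900000 and chr6:37500001-37600000, each with 1 GATA1 peak.

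The longest stretches without a codanin-1 peak were chr6:35686192-36090520 (404 kb) and chr6:38489812-38868561 (379 kb), both beyond class II, and chr6:29129382-29469255 (340 kb), before class I. Each of the 3 held 0 GATA1 peaks. In class III 6 of 31 codanin-1 peaks (19.4%) had another codanin-1 peak within 1 kb, against 24 of 408 (5.88%) in the region and 24 of 389 (6.17%) on 6q. Those 6 were neighbouring pairs counted from both sides, and no interval or share of the whole list was computed. Merging peaks within 1 kb took the region from 408 to 396 and the whole list from 14365 to 13636. In class II none of the 16 peaks had one within 10 kb, against 182 of 408 (44.6%) in the region.

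The median width of codanin-1 peaks was 236 bp in the region (quartiles 116 and 370 bp) and 195 bp on 6q (quartiles 111 and 330 bp). The exact interval of the median began at 207 bp in the region and ended at 212 bp on 6q, and the difference itself was not tested. Without peaks of the minimum width the medians were 284 bp and 241 bp, and peaks over 311 bp made up 35.5% of the region and 28.8% of 6q. The filtered median over all chromosomes was 264 bp. With all peaks kept, the median was 220 bp over all chromosomes and 209 bp in ordinary windows. It was 230 bp in the 319 other ordinary windows with 12 to 37 codanin-1 peaks, a comparison chosen after seeing the data. On chromosomes 19 and 17 it was 232.5 bp and 207 bp. A median width near that of the region was thus found in other crowded places. Peaks of at least 500 bp made up 8.82% of the region (36 of 408) and 5.14% of 6q (20 of 389), an odds ratio of 1.78 (0.98 to 3.32). Over all chromosomes they made up 9.86%, and the odds ratio of the region over the rest of the list was 0.88 (0.61 to 1.25). In ordinary windows they made up 7.41%, and the odds ratio of the region over the other ordinary windows was 1.22 (0.83 to 1.73). The direction thus depended on the comparator, and each of these intervals includes 1. The minimum width of the list, 101 bp, was that of 17.2% of peaks in the region (70 of 408) and 19.8% on 6q (77 of 389), an odds ratio of 0.84 (0.58 to 1.22).

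Among the subregions the median width was 238 bp before class I, 230 bp in class I, 159 bp in class II and 238 bp beyond class II. It was highest in class III, where the quartiles were 128 and 332 bp. The interval of the class II median, from 101 to 410 bp, takes in the medians of the other subregions. At the minimum width were 14 of 57 peaks in class I (24.6%, odds ratio 1.32 over 6q, interval 0.63 to 2.61), 4 of 16 in class II and 2 of 31 in class III. Peaks of at least 500 bp were 8 of 57 in class I (14.0%, exact interval 6.26 to 25.8), 3 of 16 in class II (18.8%) and 1 of 31 in class III. The odds ratio of class I over 6q for such peaks was 3.0 (1.08 to 7.60), but the share over all chromosomes, 9.86%, lies inside the class I interval.

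The 5 widest codanin-1 peaks of the region had fold enrichments from 3.36 to 4.48. The widest, beyond class II at chr6:35028071-35029059, was 989 bp wide with a fold enrichment of 3.88. The next, at chr6:41888350-41889212, was 863 bp wide (3.81-fold) and overlapped a GATA1 peak. Class III held the third widest, at chr6:31714627-31715485 (859 bp, 3.36-fold), and class II the fourth, at chr6:33296597-33297434 (838 bp, 4.48-fold). The fifth, at chr6:35227054-35227880, was 827 bp wide (3.84-fold). The region lacks the very wide calls of other places, since the widest peak was 2645 bp on 6q and 4869 bp over all chromosomes.

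Fold enrichment, the authors' ratio of the library over the background of the peak caller, had nearly the same median in the region as elsewhere. Its median was 3.99 in the region (quartiles 3.80 and 4.35, range 3.23 to 6.44), 4.01 on 6q (3.81 and 4.38) and 3.97 over all chromosomes. By subregion the median was 3.90 before class I, 4.11 in class I, 3.91 in class III, 4.27 in class II and 3.98 beyond class II. Peaks with a fold of 5 or more numbered 19 in the region (4.66%), 27 on 6q (6.94%) and 686 in the whole list (4.78%). The median −log10 q, the authors' significance of each peak, was 1.61 in the region and 1.60 on 6q. Narrow peaks had the higher fold in both places, with a median of 4.31 for region peaks of at most 145 bp and 3.94 for those over 311 bp, against 4.30 and 3.92 on 6q.

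**Figure D3:**
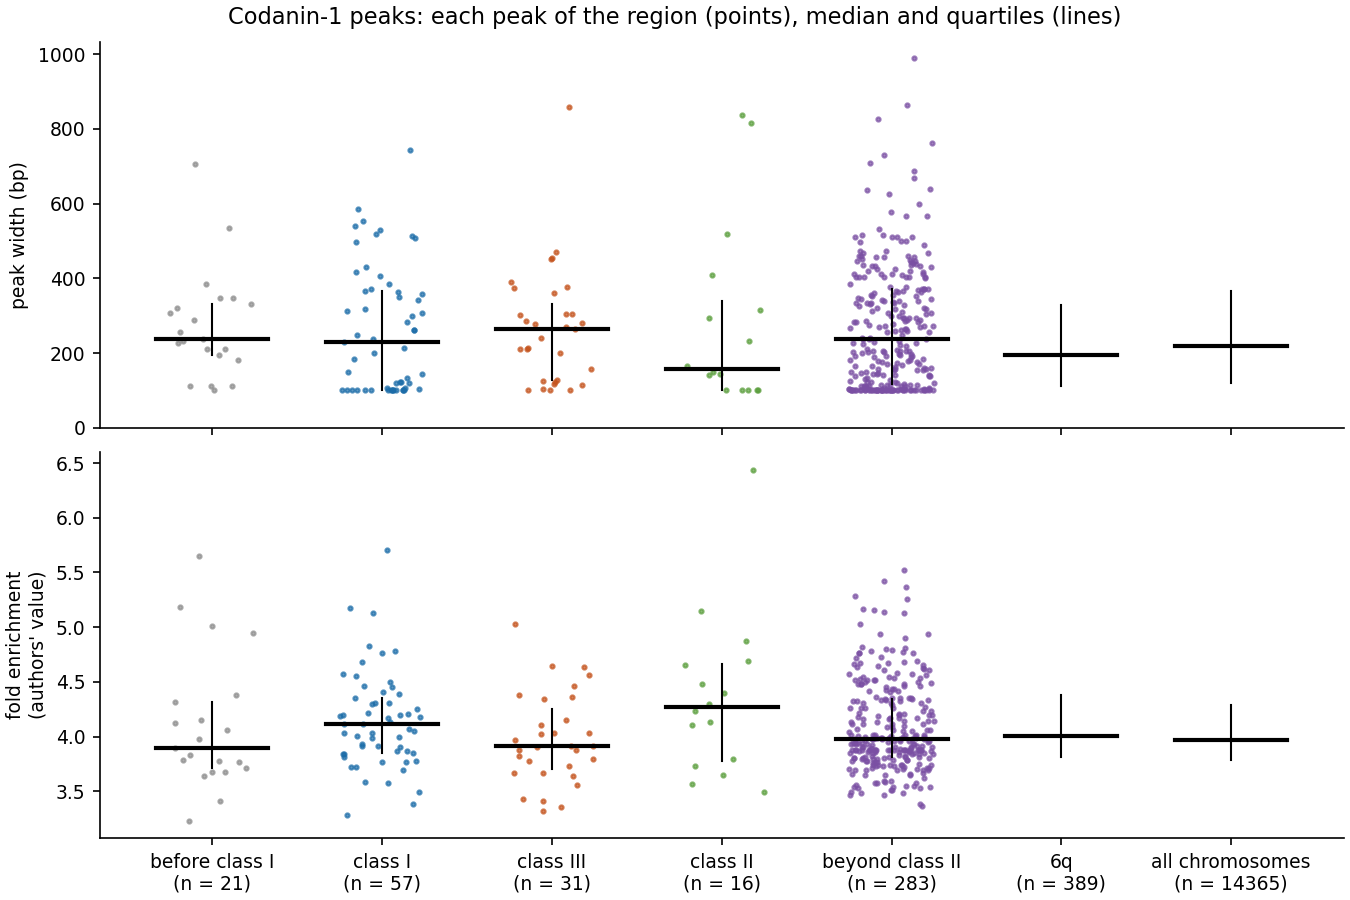
Width in bp (top) and the authors' fold enrichment (bottom) of each codanin-1 peak in the 5 subregions (points), with the median and quartiles (horizontal and vertical lines) also for 6q and all chromosomes. The median width is lowest in class II, at 159 bp, and the point clouds overlap throughout; the highest fold, 6.44, is in class II.

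The most enriched codanin-1 peak of the region was in class II, at chr6:32851679-32851829, with a fold enrichment of 6.44 and a −log10 q of 4.64. The nearest GATA1 peak was 29806 bp away. Class I followed with a peak at chr6:31165886-31166029 (5.71-fold, −log10 q 3.61), whose nearest GATA1 peak was 156728 bp away. The peak at chr6:28864110-28864222, before class I, had a lower fold of 5.65 but the highest −log10 q of the region, 5.19, and was the only one of its 408 peaks to reach 5.

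The remaining peaks of the first 10 by fold included 5 beyond class II. These were chr6:41806973-41807075 (5.52-fold), chr6:41149788-41150247 (5.42-fold), chr6:37529303-37529405 (5.37-fold), chr6:33823578-33823678 (5.28-fold) and chr6:34725142-34725505 (5.26-fold). A second peak before class I, at chr6:29496414-29496623, had a fold of 5.19, and a second in class I, at chr6:31395818-31396100, had 5.18. The highest peak of class III, at chr6:32051038-32051397, had a fold of 5.03 and lay outside the first 10. Of the first 10, 0 overlapped a GATA1 peak, and the one at chr6:34725142-34725505 was the nearest to one, at 623 bp. That count of 0 says little, since 0.735% of codanin-1 peaks in the region and 6.60% in the whole list overlapped one.

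Although both lists were crowded in the region, their peaks seldom lay on the same site, and less often than in other ordinary windows. A GATA1 peak was overlapped by at least 1 bp by 3 of the 408 codanin-1 peaks, or 0.735% (interval 0.152 to 2.13), against 6.60% of the whole codanin-1 list and 3.98% (3.65 to 4.33) in ordinary windows. The odds ratio of the region to the other ordinary windows was 0.17 (0.036 to 0.51). Of the 88 GATA1 peaks 3 were met by codanin-1 calls, or 3.41% (0.709 to 9.64), against 20.2% of the whole GATA1 list and 13.6% in ordinary windows. The overlaps were 1 of 57 codanin-1 peaks in class I and 2 of 283 beyond class II, with 0 of 21 before class I, 0 of 31 in class III and 0 of 16 in class II. A count of 0 in so few peaks allows shares of up to 16.1%, 11.2% and 20.6% (upper ends of the exact intervals), so the subregions were not told apart.

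The comparison with 6q, counting codanin-1 peaks that meet a GATA1 peak, rested on the end of that arm. On 6q 12 of 389 codanin-1 peaks did so (3.08%, interval 1.60 to 5.33), an odds ratio of 0.23 for the region over 6q (0.042 to 0.87). The end of the arm from 170 Mb held 5 of those 12. Before 170 Mb, a limit chosen after seeing the data, the share was 7 of 362 (1.93%, 0.781 to 3.94) and the odds ratio was 0.38 (0.062 to 1.66), an interval that includes 1. Chromosome 6 outside the region had 16 of 669 (2.39%), with an odds ratio of 0.30 (0.056 to 1.07). The short arm before 28 Mb had 3 of 245 (1.22%, 0.253 to 3.54). The odds ratio of the region over it was 0.60 (0.079 to 4.50), so the region and its telomeric neighbour were not told apart. From 45 to 58 Mb the count was 0 of 32 (interval up to 10.9%), and on the centromeric side of 6q it was 0 of 66 (up to 5.44%). Those stretches held only 5 and 6 GATA1 peaks, so their counts of 0 say little. The interval of the short arm before 28 Mb lies below the share of ordinary windows, 3.98%. Low overlap was thus shared with that neighbour and not particular to the region. In ordinary windows chromosome 6 as a whole had the lowest share of 23 chromosomes, 1.76% (19 of 1077), but chromosomes 15, 3 and 12 were close to it at 1.79%, 1.79% and 1.81%. That rank includes the 408 peaks of the region. Without them the share of chromosome 6, 2.39%, was above those of chromosomes 15, 3 and 12.

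Other crowded windows had more overlap than the MHC and 6p21. The 319 other ordinary windows that held from 12 to 37 codanin-1 peaks, a comparison chosen after seeing the data, had 303 of 5888 peaks overlapping (5.15%, interval 4.60 to 5.74), and the odds ratio of the region over them was 0.14 (0.028 to 0.41). These windows were on average less crowded with codanin-1 peaks than the region, at 18.5 against 24.0 per Mb, and their GATA1 density was 6.19 per Mb, against 5.18 in the region. Without chromosomes 4, 9, 21 and 22, left out after seeing the data because overlap was most frequent on them, these windows had 214 of 5291 (4.04%), an odds ratio of 0.18 (0.036 to 0.52). Of the 319 windows 210 (65.8%) held no overlap, and in the region 14 of 17 (82.4%) held none, with 1 overlap in each of the other windows. Chromosomes 19 and 17, also rich in genes, had shares of 5.02% (29 of 578) and 3.56% (18 of 505), with odds ratios of 0.14 (0.027 to 0.46) and 0.20 (0.038 to 0.69) for the region over them.

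**Figure D4:**
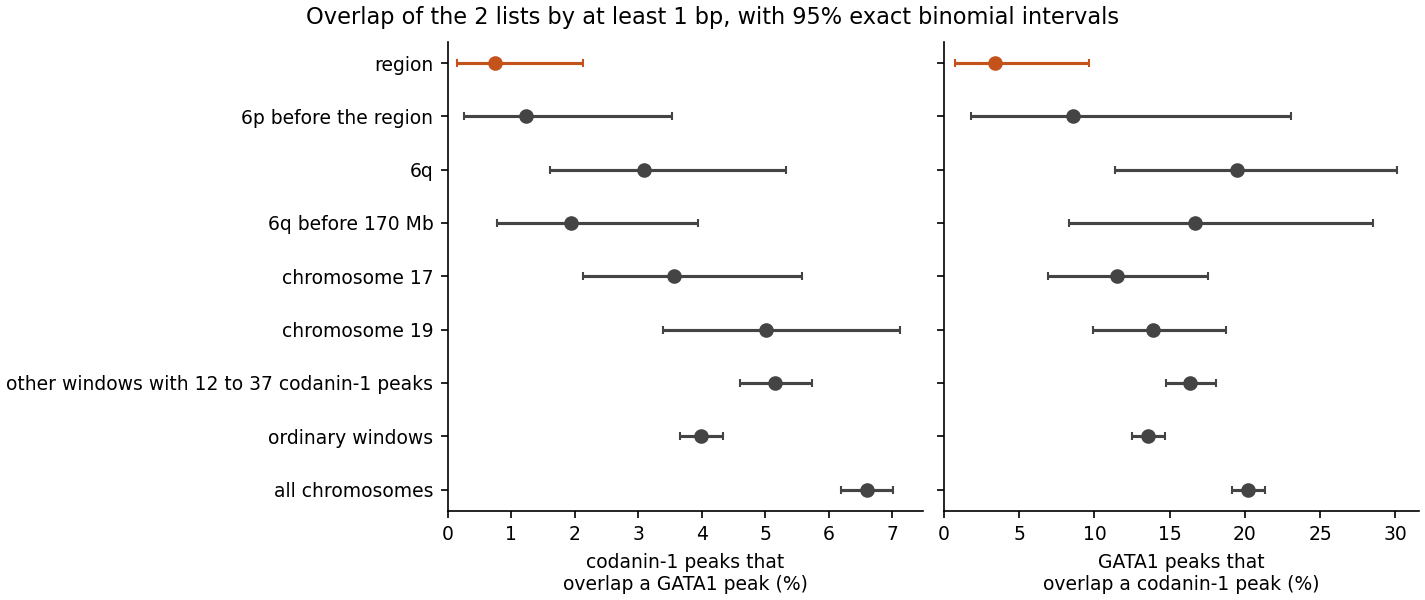
Share of codanin-1 peaks that overlap a GATA1 peak (left) and of GATA1 peaks that overlap a codanin-1 peak (right), in percent, for the region and 8 comparators; bars are 95% exact binomial intervals. The region lies at 0.735% and 3.41%. Its left-hand interval meets those of 6p before the region, 6q, 6q before 170 Mb and, narrowly, chromosome 17. It does not meet those of chromosome 19, the other windows with 12 to 37 codanin-1 peaks, ordinary windows or all chromosomes.

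At each of the 3 shared sites the GATA1 peak lay wholly inside the codanin-1 peak. The lower quartile of GATA1 fold enrichment was 4.05 in the region, and 2 of the 3 GATA1 peaks were below it. The class I site, chr6:31371401-31371758, was enriched 4.46-fold with Cod1 and 3.86-fold with the GATA1 antibody (GATA1 peak at 31371552 to 31371666). The site at chr6:34759248-34759623 had 3.84 for codanin-1 and 4.35 for GATA1 (34759448 to 34759573). The site at chr6:41888350-41889212, the second widest codanin-1 peak of the region, had 3.81 and 3.83 (41888612 to 41888783). By codanin-1 fold they ranked 83, 292 and 305 of 408.

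Allowing a gap of up to 1 kb added 8 codanin-1 peaks, for 11 of 408 (2.70%, interval 1.35 to 4.77), against 10.5% of the whole list and 6.14% in ordinary windows. On 6q the share was 15 of 389 (3.86%, 2.17 to 6.28), and on the short arm before the region 10 of 245 (4.08%, 1.97 to 7.38). Both intervals overlap that of the region. Of the 8 added, 3 were in class III and 5 beyond class II. The class III share was 3 of 31 (9.68%, 2.04 to 25.8), an interval that takes in the share of ordinary windows. The class III pairs were chr6:31655065-31655279, 158 bp from a GATA1 peak, chr6:31795312-31795581, at 449 bp, and chr6:32051038-32051397, at 349 bp, the last being the most enriched codanin-1 peak of class III. At larger distances the region was closer to GATA1 than 6q was: the median distance to the nearest GATA1 peak was 57.0 kb in the region and 270 kb on 6q, against 128 kb in ordinary windows. It was 24.5 kb in class III, where 26 of 31 codanin-1 peaks (83.9%) had a GATA1 peak within 50 kb, and 102 kb before class I, where 8 of 21 did (38.1%). The share within 50 kb was 46.8% in the region, 34.1% in ordinary windows and 23.9% on 6q. GATA1 peaks were also densest in class III, at 11.1 per Mb against 0.706 on 6q. These distances were not adjusted for GATA1 density, and its part in them was not tested.

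GATA1 peaks of high significance made up a smaller share in the region than on 6q, while the medians differed little. The median −log10 q of GATA1 peaks was 1.51 in the region, 1.69 on 6q and 1.61 in ordinary windows. Their median fold was 4.22, 4.29 and 4.23 in the same order. Peaks with a −log10 q of 2 or more were 10 of 88 (11.4%, interval 5.59 to 19.9), against 21 of 77 on 6q (27.3%, 17.7 to 38.6) and 466 of 1975 (23.6%) in the 319 other windows with 12 to 37 codanin-1 peaks. The odds ratio of the region was 0.34 (0.13 to 0.83) over 6q and 0.42 (0.19 to 0.81) over those windows. Those with a fold of 5 or more were 0 of 88, which allows a share of up to 4.11% (upper end of the exact interval), against 5 of 77 on 6q and 5.25% of the whole list. The highest were at chr6:44526556-44526632 (4.94-fold), chr6:41679202-41679261 (4.90-fold), chr6:39760394-39760543 (4.89-fold) and chr6:39248625-39248844 (4.81-fold), all beyond class II, and chr6:32811236-32811324 in class II (4.71-fold). None of these 5 overlapped a codanin-1 peak, which says little, since 3.41% of GATA1 peaks in the region and 20.2% in the whole list did. In the codanin-1 list the region did not stand apart in this way, with 97 of 408 peaks (23.8%) at a −log10 q of at least 2 and 103 of 389 (26.5%) on 6q. The part of weak GATA1 calls in the low overlap was not tested.

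Codanin-1 peaks outnumbered GATA1 peaks more strongly in the region than in the other ordinary windows, and the region and 6q were not told apart in this. There were 4.64 codanin-1 peaks per GATA1 peak in the region (interval 3.67 to 5.91) and 5.05 on 6q (3.95 to 6.54), an odds ratio of 0.92 (0.65 to 1.30). In the other ordinary windows the balance was lower, with an odds ratio of 1.41 for the region over them (1.12 to 1.80). The 319 other windows with 12 to 37 codanin-1 peaks, at a lower mean codanin-1 density of 18.5 per Mb, had 2.98 codanin-1 peaks per GATA1 peak (2.83 to 3.14). Within the region the ratio ran from 3.10 in class III (1.48 to 7.09) and 3.20 in class II to 5.05 beyond class II (3.78 to 6.86) and 5.25 before class I, with overlapping intervals. List lengths depend on sequencing depth, so these ratios are read only along the genome and not as amounts of bound protein.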

How the data were processed

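ChIP-seq peak lists of the Cod1 and GATA1 libraries of K562 cells were analysed as deposited. BWA, MACS2 and build hg19 are named in the submitters' processing notes, without versions or roles; the sources used here do not state the background library, threshold or filters. Each list gives, per the layout of a broad peak file, the authors' score, fold enrichment (a ratio), and p-value and q-value on a −log10 scale for every peak. The deposited score repeats the −log10 q, multiplied by 10 and cut to a whole number, and was not used. The files hold no read counts, so depth is unknown and folds were compared only within a list.

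Coordinates are written from 1. Peaks were placed by midpoint, and lengths of arms end at the last peak of either list. Density intervals are exact Poisson, density ratios and list ratios exact conditional binomial, shares Clopper-Pearson, odds ratios exact conditional, and medians of width exact order-statistic, all at 95%. The code was tested on simulated data. The members, boundaries and comparisons were chosen with earlier results of these data known. Named sites are the 10 codanin-1 peaks of highest fold, the 5 widest, the 5 of highest −log10 q, the highest of each subregion, all shared sites, the 5 GATA1 peaks of highest fold and the densest 100 kb bins (ties included); the 8 near pairs were added after their values were seen. No gene, motif or sequence was used, since the reference supplied is of another build. Alternatives were stricter −log10 q (2) and fold (4) thresholds, merging within 1 kb, other overlap rules, other comparators, and shifted boundaries. Python 3.11.15, numpy 2.4.6, scipy 1.17.1, pandas 2.3.3 and matplotlib 3.10.9 were used.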

Additional observations from a re-analysis of the deposited data

How the results depend on the processing

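The codanin-1 density ratio of the region over 6q stayed above 1 in all 10 alternatives, from 4.05 to 19.8, and that of GATA1 from 3.05 to 47.0. For codanin-1 it was 5.53 against the rest of chromosome 6, 5.27 against all other chromosomes, and, chosen after seeing the data, 19.8 and 4.05 against the centromeric and telomeric sides of 6q. For GATA1 it was 3.05 against all other chromosomes, 47.0 and 3.98 against those sides, and 3.05 when a −log10 q of 2 was required, which left 10 and 21 peaks. Codanin-1 peaks that met a GATA1 peak made up 0% at that threshold (97 codanin-1 peaks left, against 6.21% of the whole list), 0% at a fold of 4 or more (against 2.96%), 0% when 0.5 of both lengths had to overlap, and 2.70% within 1 kb (3.86% on 6q). The rule of 0.5 of both lengths is not informative here. The shared GATA1 peaks, of 115, 126 and 172 bp, lay in codanin-1 peaks of 358, 376 and 863 bp, so their widths alone give 0%. No share of the whole list under that rule is given. The median width was 120 bp at a −log10 q of at least 2, 151 bp at a fold of at least 4 and 284 bp without peaks of the minimum width (241 bp on 6q), since each removes peaks by width or by a value tied to it. The ratio of codanin-1 to GATA1 peaks was 9.70 and 2.66 under the q and fold thresholds, so it has no fixed size; the cause was not tested. Merging and leaving out the window from 31 Mb changed none of these values beyond its interval, and moving inner boundaries by 0.1 Mb kept the order of class III, class I, the stretch beyond, class II and the stretch before class I. No paired analysis was possible because there is 1 library per antibody, which also means that none can be left out in turn. Sites below the caller's threshold cannot be counted at an unknown depth.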
